A study of Caenorhabditis elegans with 2 samples.

Results

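Genes of the nuclear pore and of nuclear transport were examined for promoter binding of TLF-1, the TBP-like factor of Caenorhabditis elegans. The members were all protein-coding genes of the WBcel235 annotation (Ensembl release 115) whose symbols are npp, imb, ima, ran or xpo followed by a number. The rule gave 40 of 19973 protein-coding genes, of which 26 were nucleoporin genes (npp) and 14 transport factor genes (3 ima, 3 imb, 5 ran and 3 xpo). Binding had been measured by chromatin immunoprecipitation and sequencing with an antibody against GFP in 2 biological replicates of 1 group. The animals were whole young adults of strain OP749 at 65.5 hours, of mixed sex, synchronised by starving L1 larvae after bleaching. They carry the transgene wgIs749, in which tlf-1 ends in TY1, EGFP and 3xFLAG and unc-119(+) serves as rescue, on an unc-119 (tm4063) background. All tissues of the animal were pooled in a library, so binding cannot be given to a tissue. The authors derived the peak lists from alignments and a shared control file, but no untagged strain was analysed. Background signal that this control does not remove was thus not told apart from binding of TLF-1.

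TLF-1 belongs to the family of TBP-like factors, which in flies and vertebrates serve a subset of promoters and do not bind the TATA box as TBP does. The nuclear pore is a ring-shaped channel through the nuclear envelope, built of an outer ring, an inner ring, membrane anchors, a central channel of flexible repeats, filaments on the cytoplasmic face and a basket on the nuclear face. Importins carry cargo in and exportins carry it out, and the GTPase Ran, held in its GTP form inside the nucleus, sets the direction. In the early worm embryo pores are taken apart and rebuilt around each division, and in the germ line germ granules sit on the pores of the nuclei.

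Each gene was given a promoter window that began 500 bp before its annotated start and ended 100 bp after it. The authors had deposited a list filtered by irreproducible discovery rate (IDR), and this IDR set held 1880 peaks. A summit of it lay in the windows of 12 of the 40 members. That is 30% of the members (95% Wilson interval 18.1 to 45.4), against 5.28% of all protein-coding genes. The 12 were the nucleoporin genes npp-3, npp-6, npp-8, npp-9, npp-13 and npp-14 and the transport factor genes ima-1, ima-2, imb-1, imb-3, ran-1 and ran-5. Each window held a single IDR summit. Read depth is not given in the sources used here, and the intervals cover counting error over genes only.

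Sequences of 151 bp centred on the IDR summit are shown for 4 of the 12 members, to show the letters under their summits and where they differ. They are not the 4 strongest: 6 members of another chromosome are not shown, among them ima-2 and imb-3 at IDR ranks 219 and 240, and npp-9 and ran-5 were left out because their stretches touch an annotated exon. Each is written on the strand of the member, from the RefSeq copy of WBcel235, the same assembly as ce11. Capitals mark words found on either strand, namely GCGCCA with its reverse complement, the word GCGCGC, and the CCAAT box, which is read as ATTGG on the other strand. The windows are chrII:11874806-11874956 on the minus strand for npp-3, chrIV:1595863-1596013 on the minus strand for npp-8, chrIII:10748096-10748246 on the minus strand for ran-1 and chrV:11239336-11239486 on the plus strand for ima-1.
npp-3: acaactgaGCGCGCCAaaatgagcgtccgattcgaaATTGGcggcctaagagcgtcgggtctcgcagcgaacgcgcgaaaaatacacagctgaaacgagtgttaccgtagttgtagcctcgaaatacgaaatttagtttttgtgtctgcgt
npp-8: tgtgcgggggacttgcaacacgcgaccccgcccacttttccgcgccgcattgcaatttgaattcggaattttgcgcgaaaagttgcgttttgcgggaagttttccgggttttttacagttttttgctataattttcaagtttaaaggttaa
ran-1: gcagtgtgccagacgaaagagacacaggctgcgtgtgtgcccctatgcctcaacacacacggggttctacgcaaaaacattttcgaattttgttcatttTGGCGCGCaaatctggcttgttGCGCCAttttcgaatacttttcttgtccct
ima-1: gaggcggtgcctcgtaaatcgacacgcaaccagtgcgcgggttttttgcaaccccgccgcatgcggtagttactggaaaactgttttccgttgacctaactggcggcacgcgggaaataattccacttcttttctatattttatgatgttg

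In npp-3 and in ran-1 the words GCGCCA and GCGCGC overlap each other. The printed windows of npp-8 and ima-1 hold none of the words searched, and 2 further copies of GCGCCA near the ran-1 summit lie outside the stretch shown.

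Of the 4 inner ring genes 3 had an IDR summit, against 5.28% of all protein-coding genes. Among them, npp-3 and npp-8 were the strongest of all the nucleoporins. The gene npp-3 (WBGene00003789) encodes the homologue of human NUP205, a large inner ring scaffold. Its peak (chrII:11874744-11875003) ranked 57 in the IDR set by the authors' signal value, at 429.4, and ranked 51 in replicate 1 (signal 214.0) and 57 in replicate 2 (signal 223.1). The gene npp-8 (WBGene00003794), homologue of NUP155, had a peak at chrIV:1595736-1596139 that ranked 373 in the IDR set, 416 in replicate 1 (signal 87.3) and 348 in replicate 2 (signal 104.0). Signal values are the authors' own and are compared only within a list. Both genes were thus ranked closely alike by the 2 replicates. The peak of npp-13 (WBGene00003799, homologue of NUP93), at chrI:2096903-2097306, ranked 976 in the IDR set and 871 in replicate 2 (signal 68.1). In replicate 1 it ranked 2033 (signal 41.4), below the 1880 strongest peaks of that list. The remaining inner ring gene, npp-19, had a pooled summit at rank 14466 and none in the IDR set.

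On the cytoplasmic face, where export complexes are taken apart, 2 of 3 members had an IDR summit, against 5.28% of all protein-coding genes. The gene npp-9 (WBGene00003795), homologue of the Ran-binding nucleoporin RANBP2, had a peak at chrIII:3404249-3404652 that ranked 627 in the IDR set, 617 in replicate 1 (signal 71.6) and 770 in replicate 2 (signal 72.0). The gene npp-14 (WBGene00003800), homologue of NUP214, had a peak at chrI:9664970-9665373 that ranked 742 in the IDR set, 601 in replicate 1 (signal 72.8) and 1201 in replicate 2 (signal 57.6). Replicate 1 placed npp-14 higher than replicate 2 did, while npp-9 lay at similar ranks in both. The other member of this face, npp-24, had no summit in its window in any of the 4 lists. The gene npp-17, also placed on this face, is not a protein-coding symbol in the annotation used and was not counted.

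Of the 8 outer ring genes, whose products form the Y-shaped scaffold on each face of the pore, 1 had an IDR summit. The share over all protein-coding genes was 5.28%. The outer ring gene with an IDR summit was npp-6 (WBGene00003792), homologue of NUP160, with a peak at chrI:5176224-5176627. It ranked 987 in the IDR set, 1582 in replicate 1 (signal 46.7) and 951 in replicate 2 (signal 64.9). Pooled summits, strong or weak, were present at 7 of the 8 outer ring genes, all but npp-5, against 25.7% of all protein-coding genes. None of the 3 basket genes, the 3 central channel genes or the 2 membrane genes had an IDR summit in the window. In the pooled list, where 25.7% of all coding genes had a summit, all 3 basket genes had one, as did 1 channel gene (npp-4) and both membrane genes. Some of these ranked low among the 28153 pooled peaks, such as npp-7 at rank 19306 and npp-12 at 27987. For npp-7 an IDR peak ranked 1123 had its summit 555 bp upstream of the start, outside the window. The 3 npp genes without an assigned role also had no IDR summit there, and 2 of them had a pooled summit.

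Among the importins alpha, the adaptors that recognise the classical import signal, ima-1 and ima-2 had strong summits and ima-3 had none in the IDR set. An IDR summit lay in the windows of 5.28% of all protein-coding genes. In the worm ima-1 and ima-2 are known as germline forms, and ima-3 also acts in somatic cells. The peak of ima-1 (WBGene00002072, chrV:11239313-11239490) ranked 207 in the IDR set, 291 in replicate 1 (signal 102.1) and 183 in replicate 2 (signal 138.5). The peak of ima-2 (WBGene00002073, chrI:6314814-6314994) ranked 219 in the IDR set, 525 in replicate 1 (signal 77.1) and 130 in replicate 2 (signal 159.1), so the replicates ranked it further apart. In the window of ima-3 a pooled summit ranked 23479, one of replicate 2 ranked 15679, and replicate 1 had none. An IDR peak, ranked 1759, lay 2296 bp downstream of the start of ima-3, in an untranslated exon of this gene of 2939 bp.

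Of the importin beta family, imb-1 and imb-3 had IDR summits and imb-2 did not, against 5.28% of all protein-coding genes. The peak of imb-3 (WBGene00002077, homologue of importin 5), at chrI:315160-315333, ranked 240 in the IDR set, 219 in replicate 1 (signal 115.6) and 330 in replicate 2 (signal 105.5). The peak of imb-1 (WBGene00002075), the importin beta that pairs with importin alpha, lay at chrI:4926359-4926762 and was the weakest of the 12, at rank 1178. It ranked 887 in replicate 1 (signal 61.6) and 2049 in replicate 2 (signal 45.3), outside the 1880 strongest of that list. The pooled summit of imb-2, the worm transportin, ranked 3666.

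In the Ran system, ran-1 and ran-5 of the 5 members had IDR summits, against 5.28% of all protein-coding genes. The peak assigned to ran-1 (WBGene00004302), the gene of the GTPase Ran itself, lay at chrIII:10748056-10748246 and ranked 157 in the IDR set and 160 in each replicate (signal 131.7 in replicate 1 and 146.9 in replicate 2). That of ran-5 (WBGene00004306), a Ran-binding protein, lay at chrII:6047649-6048052 and ranked 511 in the IDR set, 681 in replicate 1 (signal 69.0) and 447 in replicate 2 (signal 92.4). Another IDR peak, ranked 195, had its summit 1113 bp downstream of the start of ran-1, in an untranslated exon. The gene is 1148 bp long, so this summit lay at its end and not at its promoter. The genes of the activating and exchange factors, ran-2 (RanGAP) and ran-3 (RCC1), and ran-4, the homologue of the Ran importer NTF2, had pooled summits at ranks 6633, 7823 and 6025 and no IDR summit in the window.

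None of the 3 exportin genes had an IDR summit in its window, where 5.28% of all protein-coding genes had one. With 3 genes and that share, nothing about exportins as a group is drawn from this. The pooled summit of xpo-2, homologue of the exportin that recycles importin alpha, ranked 4359, and that of xpo-3, the tRNA exportin, ranked 4977. The window of xpo-1, homologue of the general exportin CRM1, held no summit in any list.

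**Figure D1:**
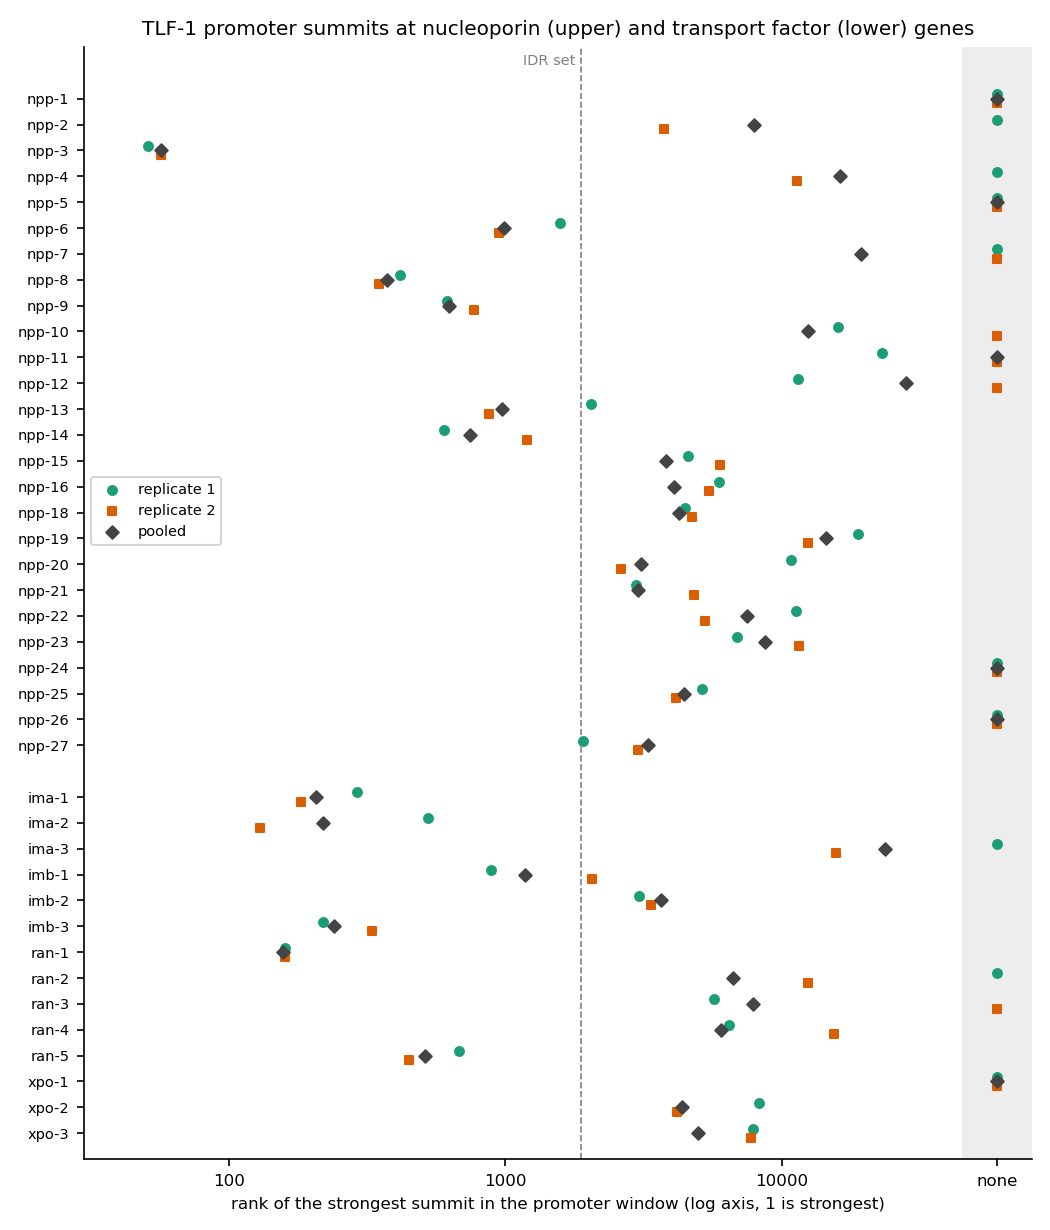
Rank of the strongest summit in the promoter window of each of the 40 members, in replicate 1, replicate 2 and the pooled list (horizontal log axis, 1 is the strongest), with genes on the vertical axis and members without a summit in the grey band. The dashed line marks rank 1880, where the IDR set ends. The 12 members left of it reach from rank 57 (npp-3) to 1178 (imb-1) in the pooled list, and the next member lies at 3017.

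The members fell on both sides of the IDR limit with a wide gap around it. The last member inside was imb-1 at pooled rank 1178 and the first outside was npp-21, homologue of the basket protein TPR, at 3017. It was followed by npp-20 (SEC13) at 3086, npp-27 at 3275, imb-2 at 3666, npp-15 (NUP133) at 3821, npp-16 (NUP50) at 4067, npp-18 (SEH1) at 4226 and xpo-2 at 4359. The replicates differed most for npp-20 among these 8, with rank 10736 in replicate 1 and 2624 in replicate 2. The best rank in a single replicate among them was that of npp-27, 1915 in replicate 1, and this gene ranked 3009 in replicate 2. Its summits in the replicates lay 139 bp apart. Among these 8 such gaps ran from 2 bp (npp-21) to 162 bp (npp-15), so the 2 ranks of a gene need not be of the same site. Another 14 members had only weaker pooled summits, at ranks from 4425 to 27987.

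Counting every pooled summit, strong or weak, 34 of the 40 members had one in the window (85.0%, interval 70.9 to 92.9), against 25.7% of all protein-coding genes. Each whole replicate list also had a summit at 30 members (75%), against 23.1% of all coding genes in replicate 1 and 22.7% in replicate 2. Of the 40, 26 had a summit in both replicate lists, 4 in replicate 1 only and 4 in replicate 2 only. The share of all coding genes with a summit in both lists was not computed, so these counts are given without a background. A summit in both lists also need not be the same site. At npp-23 the strongest summits of the replicates lay 205 bp apart. The median rank of the best pooled summit was 3944 over the 34 members and 7907 over the 5137 coding genes with a pooled summit. The 6 members with no pooled summit were npp-1, npp-5, npp-11, npp-24, npp-26 and xpo-1, of which npp-11 alone had a summit in another list, at rank 22976 of replicate 1.

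Over all protein-coding genes the share with an IDR summit was 5.28%. Nucleoporins had IDR summits at 6 of 26 genes (23.1%, Wilson interval 11 to 42.1) and transport factors at 6 of 14 (42.9%, interval 21.4 to 67.4). The intervals overlap over much of their length. No test was made between them, since genes are not replicates of a condition. The median IDR rank was 684.5 over the 6 summits of nucleoporins and 229.5 over the 6 of transport factors, against 790 over all 836 promoter summits. The 836 count each summit a single time, while member summits were reached through genes. The 790 is thus not strictly like for like with the medians of the members. The ranges overlapped, since npp-3 was the strongest of the 12 and imb-1 the weakest. In the pooled list the shares were 21 of 26 (80.8%) for nucleoporins and 13 of 14 (92.9%) for transport factors, against 25.7% of all protein-coding genes. The median best pooled ranks were 4067 for nucleoporins and 3666 for transport factors.

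The order of nucleoporins and transport factors depended on how windows were drawn. With 250 bp upstream in place of 500, nucleoporins had 4 of 26 (15.4%) and transport factors 1 of 14 (7.14%), against 3.45% of all coding genes. The 7 members lost were ima-1, ima-2, imb-3, npp-6, npp-14, ran-1 and ran-5, and the summits of ima-1, npp-14 and ran-5 lay only 264, 257 and 258 bp upstream of the starts. With each summit counted only for the nearest coding gene start, nucleoporins had 4 of 26 and transport factors 2 of 14 (14.3%), against 4.13%. The members kept in that count were npp-3, npp-8, npp-9, npp-13, ima-2 and imb-3.

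Other settings moved the counts less. With 1000 bp upstream and 500 bp downstream npp-7, homologue of the basket protein NUP153, was added through a peak of IDR rank 1123 whose summit lay 555 bp upstream, which made 13 members against 6.98% of coding genes. Any overlap of a peak with the window added the same gene, against 6.13%. Starts of all protein-coding transcripts gave the same 12 members, against 5.63%. The stronger 940 IDR peaks left 9 members (4 nucleoporins and 5 transport factors), against 3.12%, and lost imb-1, npp-6 and npp-13. The 1880 strongest peaks of replicate 2 alone gave 11, without imb-1, against 4.94%, and those of replicate 1 alone gave 11, without npp-13, against 5.13%.

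**Figure D2:**
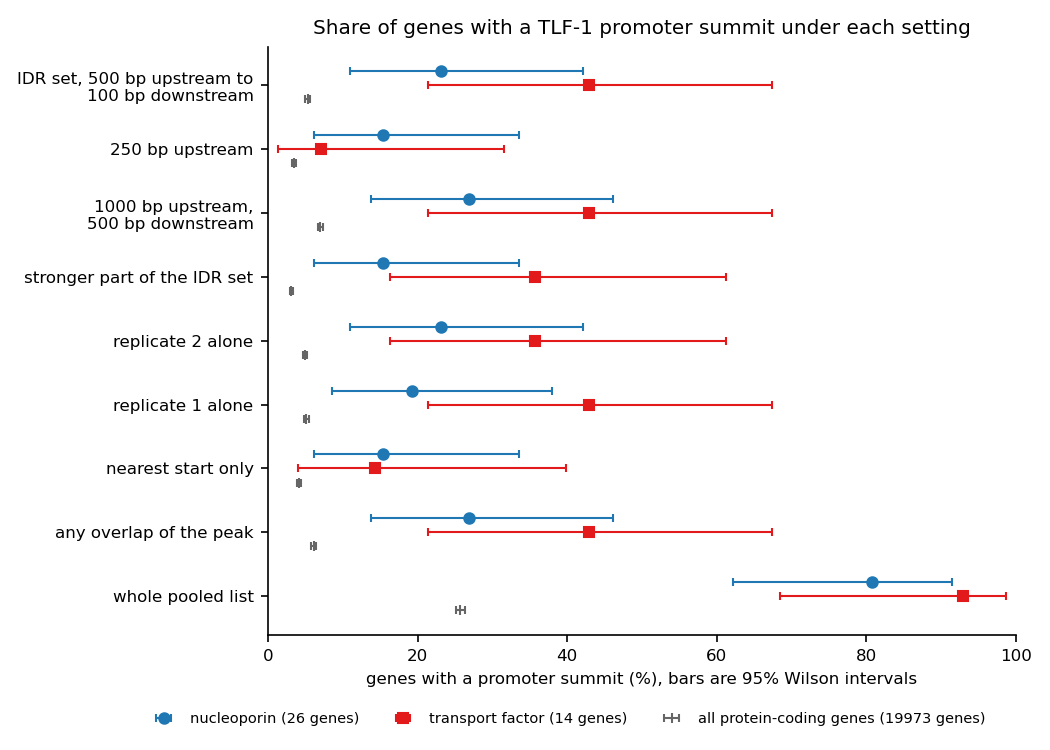
Percentage of genes with a promoter summit (horizontal axis) among the 26 nucleoporin genes, the 14 transport factor genes and all 19973 protein-coding genes, under each setting on the vertical axis. Points are shares and bars 95% Wilson intervals. Nucleoporins lie below transport factors with the IDR set and the window of 500 bp (23.1% and 42.9%), and above them with 250 bp upstream (15.4% and 7.14%).

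Summits of the 12 members lay mostly upstream of the starts. Their median position was -257.5 bp, with a range from -443 bp (ran-1) to 28 bp (npp-9), and 11 of 12 were upstream. Over all 1063 pairs of a coding gene and an IDR summit in its window the median was -197 bp, with 985 upstream. The window reaches 500 bp upstream and 100 bp downstream, so most positions that it allows are upstream. The 6 nucleoporin summits had a median of -177.5 bp and the 6 transport factor summits one of -271.5 bp. The strongest summits of replicates 1 and 2 in each window were 2 to 56 bp apart, with a median of 12.5 bp, against 22 bp over the 1033 coding genes with an IDR summit and a summit in both replicate lists. For ran-1 and imb-1 the replicates placed the summit within 2 bp, and for npp-8 they were 56 bp apart. Among the 12 members, 10 ranked within the 1880 strongest of both replicates (83.3%), against 749 of 1054 coding genes with an IDR summit (71.1%). The member summits were also the stronger, with a median IDR rank of 442 against 790 over all promoter summits. The part of peak strength in these agreements was not tested, and 12 genes are few for such shares.

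Many of these summits could not be given to a member alone. Of the 12, 7 also lay in the window of another protein-coding gene (58.3%). This was so for 3 of 6 summits of nucleoporins and 4 of 6 of transport factors. The neighbour was in each case a gene on the other strand. Of all 836 promoter summits, 224 (26.8%) lay in the windows of several genes. That share counts each summit a single time, although the 836 summits made 1063 pairs with coding genes. Member summits were reached through genes, which favours summits lying in several windows. The shares of 58.3% and 26.8% are thus not like for like, and no excess of sharing at members is drawn from them.

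The npp-3 summit lay 93 bp upstream of npp-3 and 267 bp upstream of top-2, which encodes DNA topoisomerase II. For ran-1 the order was reversed, with 443 bp to ran-1 and 258 bp to dkc-1, the gene of the pseudouridine synthase dyskerin. The npp-14 summit was 257 bp from npp-14 and 79 bp from cel-1, the gene of the mRNA capping enzyme. That of ima-1 was 264 bp from ima-1 and 80 bp from dvc-1. The imb-1 summit was almost midway, 75 bp upstream of imb-1 and 74 bp upstream of mfsd-13.1. In these 5 cases the summit lay upstream of both genes, so a shared and a separate promoter cannot be told apart.

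For 3 members the summit lay inside a gene. The npp-9 summit was in the first bases of npp-9, 28 bp past its start and within an annotated intron, and 412 bp upstream of F59A2.5. The summit in front of ran-5 was in a coding exon of R12C12.6, 16 bp past the start of that gene. The one in front of npp-6 was in an intron of spd-5, a centrosome scaffold gene, 228 bp past the spd-5 start and outside its window. For ima-2, imb-3, npp-8 and npp-13 the summit lay in no other coding gene and in no other window.

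**Figure D3:**
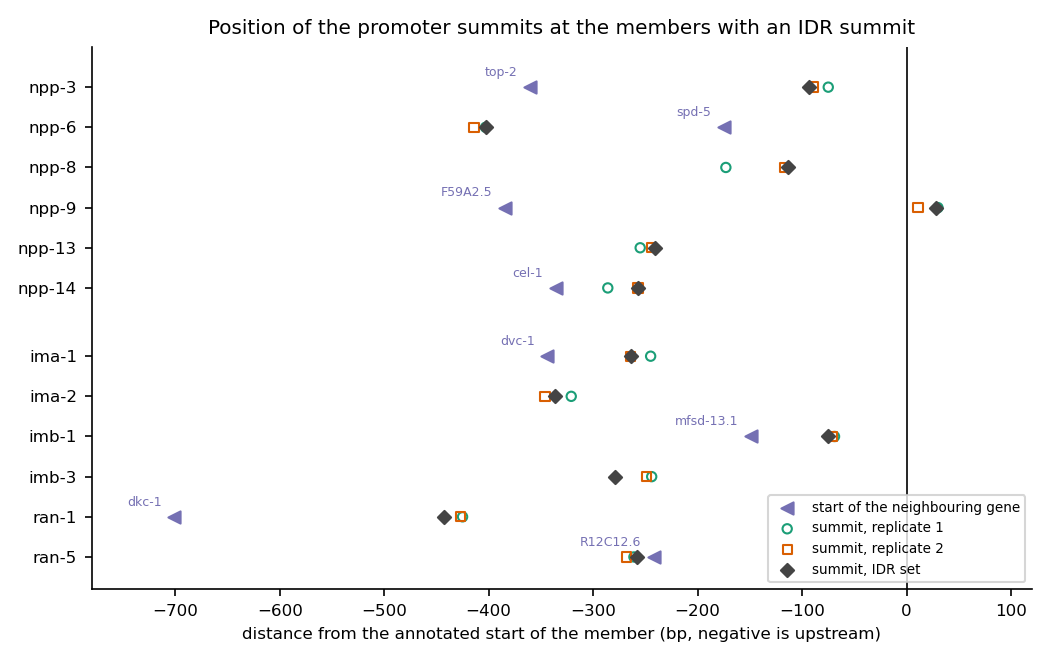
Position of the summit in replicate 1, replicate 2 and the IDR set (horizontal axis, bp from the annotated start of the member, negative is upstream) for the 12 members with an IDR summit on the vertical axis, nucleoporins above and transport factors below. Triangles mark the starts of other coding genes whose window or body holds the summit and point in their direction of transcription. At npp-6, npp-14, ima-1, ran-1 and ran-5 the summit is nearer to the start of the neighbour than to that of the member, and at imb-1 it is nearer by 1 bp.

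The word GCGCCA was the most frequent of the 5 searched at the members. It occurred on either strand within 100 bp of 6 of 12 member summits (50%), against 20.7% of all 836 promoter summits and 3.59% of equal windows centred 150 bp before the start of every coding gene. The 6 were ran-1 with 4 copies, ima-2 with 3, npp-9, npp-14 and ran-5 with 2 each, and npp-3 with 1, so 3 were nucleoporins and 3 transport factors. This word was picked with earlier results of these data known. The word GCGCGC, which can overlap it, was found at npp-3 and ran-1, which is 16.7% of member summits, against 16.3% of all promoter summits and 2.81% of promoters.

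The TATA word TATAAA was found at 1 member, npp-9 (8.33%), against 15.1% of promoter summits and 25.7% of promoters. The CCAAT box was found at 3 members, ima-2, npp-3 and ran-1, which is 25.0% against 28.3% of promoter summits and 32.7% of promoters. The NRF1-like palindrome, 2 copies of GCGC with any 2 bases between them, was found at none of the 12 members, and at 2.15% of promoter summits. The members' windows had a median GC content of 41.3%, against 40.3% for all promoter summits and 33.8% before all coding genes. Its part in the shares of these words was not tested.

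Of the members on chromosome I, 6 of 13 had an IDR summit, against 7.54% of coding genes there. On the other chromosomes the counts were 2 of 8 members on chromosome II, 2 of 8 on III, 1 of 8 on IV and 1 of 3 on V, against 5.1%, 9.24%, 5.67% and 3.3% of coding genes. No member lies on X. With 8 or fewer members on each of chromosomes II to V, 1 gene with a summit already exceeds these shares. The counts are thus too small to compare chromosomes.

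Genes that work beside the pore were counted from a list of 32 nuclear envelope and RNA export genes. IDR summits were found at 7 of them (21.9%, Wilson interval 11 to 38.8), against 5.28% of coding genes, and pooled summits at 21 (65.6%), against 25.7%. The mRNA export genes were nxt-1, a partner of the export receptor, at IDR rank 313, aly-2, an export adaptor, at 736, thoc-7, of the THO complex, at 839, nxf-1, the export receptor itself, at 1833, and hel-1, an RNA helicase, at 1848. The nuclear envelope genes were emr-1 (emerin) at 1699 and baf-1, which links chromatin to the envelope, at 1747. Of the 7, the 4 ranked from 1699 to 1848 lay close to the end of the IDR set at 1880. The lamin gene lmn-1 and mel-28, the gene of the nucleoporin ELYS that the symbol rule does not take in, had no IDR summit in their windows.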

How the data were processed

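TLF-1 chromatin immunoprecipitation was compared across genes in 4 deposited peak lists on ce11. Per the README records, the authors derived 1 list per replicate and a pooled list from alignments and a shared control file, and filtered these by IDR. Neither the peak caller nor the IDR threshold is given in the sources used here. Peaks were ranked within a list by the authors' deposited signal value (narrowPeak column 7). The -log10 q-value deposited in column 9 sat at its maximum for 85.2% of IDR peaks and ranked nothing here. Column 10 gave the summit. The IDR peaks were the 1880 strongest of 28153 pooled peaks.

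A summit may count for several genes, and for trans-spliced genes the annotated start can lie past the true start. With 1 group no test was run. Shares carry 95% Wilson intervals. Named genes are every member with an IDR summit, the 8 next by pooled rank, related genes with an IDR summit and neighbours sharing a summit. Other genes were named after their values were seen. Members and lists were chosen with earlier results of these data known. The first coding bases of all 40 members read ATG in the genome used. Counting was tested on simulated data, where all 200 planted genes were found in each of 5 runs. The tools were Python 3.11.15 with scipy 1.17.1, numpy 2.4.6, pandas 2.3.3 and, for figures, matplotlib 3.10.9.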

Additional observations from a re-analysis of the deposited data

How the results depend on the processing

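No paired analysis was possible because there is 1 group. The count of members with a promoter summit, 12 with the IDR set, became 5 with 250 bp upstream, 6 with nearest starts only and 34 with the whole pooled list. The share of all protein-coding genes moved too. It was 5.28% with the IDR set, 3.45% with 250 bp upstream, 4.13% with nearest starts only and 25.7% with the pooled list. For nucleoporins, 6 became 21 with the pooled list. For transport factors, 6 became 1 with 250 bp upstream, 2 with nearest starts only and 13 with the pooled list. The narrower window and the nearest start count fewer summits per gene by construction, and the pooled list holds more peaks. Leaving out each replicate gave 11 members both times, against 4.94% of coding genes without replicate 1 and 5.13% without replicate 2. Either way there were 5 to 6 nucleoporins and 5 to 6 transport factors, with a median position from -253 to -250 bp. Within 50 bp of the summit in place of 100, GCGCGC was found at 1 member summit in place of 2, in fewer bases. The remaining counts stayed within 1.5 times. Of the 12 IDR ranks, 3 moved by more than 1.5 times in each replicate list. Without the read depth, its effect on weak summits was not assessed.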
